A study of Bos taurus with 23 samples.

Results

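The importin alpha family was followed through bovine oocytes and preimplantation embryos by taking every probe set (a group of array probes read as 1 value for a transcript) whose platform gene symbol is KPNA followed by a digit. This gave 7 probe sets of 24016 that are not controls, and 5 genes of 9155 named by a single symbol. KPNA1, KPNA2 and KPNA7 had 1 probe set each, and KPNA3 and KPNA4 had 2 each. The annotation used here names no probe set for KPNA5 or KPNA6, so these were not analysed here. For KPNA3 and KPNA4 the probe set with the higher mean over all arrays stands for the gene, and the other is called the lower-mean probe set. All 7 probe sets passed the filter on low values, although those of KPNA4 passed it through the 8-cell and later arrays alone. No sequence of the probes was used, so the part of a transcript that each probe set reads is not known here, nor is cross-hybridisation between family members.

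The study profiled poly(A)+ RNA of Bos taurus on 23 arrays in 8 groups. There were 3 arrays of oocytes labelled as cultured in vitro, for which the labels give no culture conditions, and 3 of in vivo oocytes, taken on day 0 from preovulatory follicles (9 donors). Inseminated donors (24 animals, semen of 1 bull) gave 3 arrays of zygotes, 2 of 2-cell, 2 of 4-cell and 4 of 8-cell embryos, collected by oviduct flushing between days 1 and 4 after insemination. The series text describes the last of these as 8- to 16-cell stages. Uterine flushing of 7 animals on days 7 to 8 gave 3 arrays of morulae and 3 of blastocysts. A pool held 10 embryos, or 5 at the blastocyst stage. No treatment, genotype or age was labelled. Arrays of a group are labelled as biological replicates, without a statement on whether pools shared donors, so the p values measure the spread between pools. Between in vivo oocytes and zygotes, and again between 8-cell embryos and morulae, donors, collection site and day change with the stage and cannot be told apart from it.

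Importin alphas are the adaptors of classical nuclear import. They bind the nuclear localisation signal of a cargo protein and, through an amino-terminal domain, importin beta, which carries the complex through the nuclear pore. Inside the nucleus RAN bound to GTP releases the cargo, and CSE1L returns importin alpha to the cytoplasm. Vertebrate members fall into subfamilies, with KPNA2 and KPNA7 in one, KPNA3 and KPNA4 in another, and KPNA1, KPNA5 and KPNA6 in the last. KPNA7 is known in cattle and other mammals as the member made by the oocyte and early embryo. The series was read here for whether the other members rise as KPNA7 falls.

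Values are log2 GCRMA expression values, and values under 4 were treated as background. The 6 oocyte markers all lay above 4 on every array from the oocyte to the 8-cell stage and none did so in blastocysts, while the 4 trophectoderm markers measured all did so in blastocysts. Some arrays stood apart in markers of other cell types, whose source was not tested. In vivo oocyte array 2 had 8 of 10 cumulus and granulosa markers above 4 (2 to 5 on the other arrays), and 4-cell array 1 had 8 of 9 blood and leukocyte markers above 4 (1 to 3 on the other arrays). These lists overlap with genes that earlier work on these data had found on the same arrays. The 2-cell array 1 and the blastocyst array 1 each had 2 of 5 oviduct and uterine markers above 4 (0 to 1 on the others). The tests of the members were also run without these 4 arrays, and this is named where a call ended. Correlations were computed over all arrays alone.

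KPNA7 was uniformly high from the oocyte to the 4-cell stage and was not detected above background in morulae and blastocysts. On the 13 arrays up to the 4-cell stage its value lay between 15.41 and 15.80, with a median of 15.70. The highest value of any probe set on an array was 15.81 to 16.34, so KPNA7 sat near the top of the scale, where differences may be compressed. Saturation was not tested. Its group means were 15.75 ± 0.04 (SD, n = 3) in in vitro oocytes, 15.76 ± 0.04 (n = 3) in in vivo oocytes, 15.64 ± 0.20 (n = 3) in zygotes, 15.52 ± 0.12 (n = 2) in 2-cell and 15.59 ± 0.03 (n = 2) in 4-cell embryos. Neighbours in this order overlapped, and none of the 4 comparisons among these groups passed. The difference between in vitro and in vivo oocytes was -0.01 (SE 0.68, adjusted p = 0.996). This SE rests on the spread shared by all groups, which was widest on the 8-cell arrays (SD 2.05), so these comparisons are less precise than the SDs above.

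**Figure D1:**
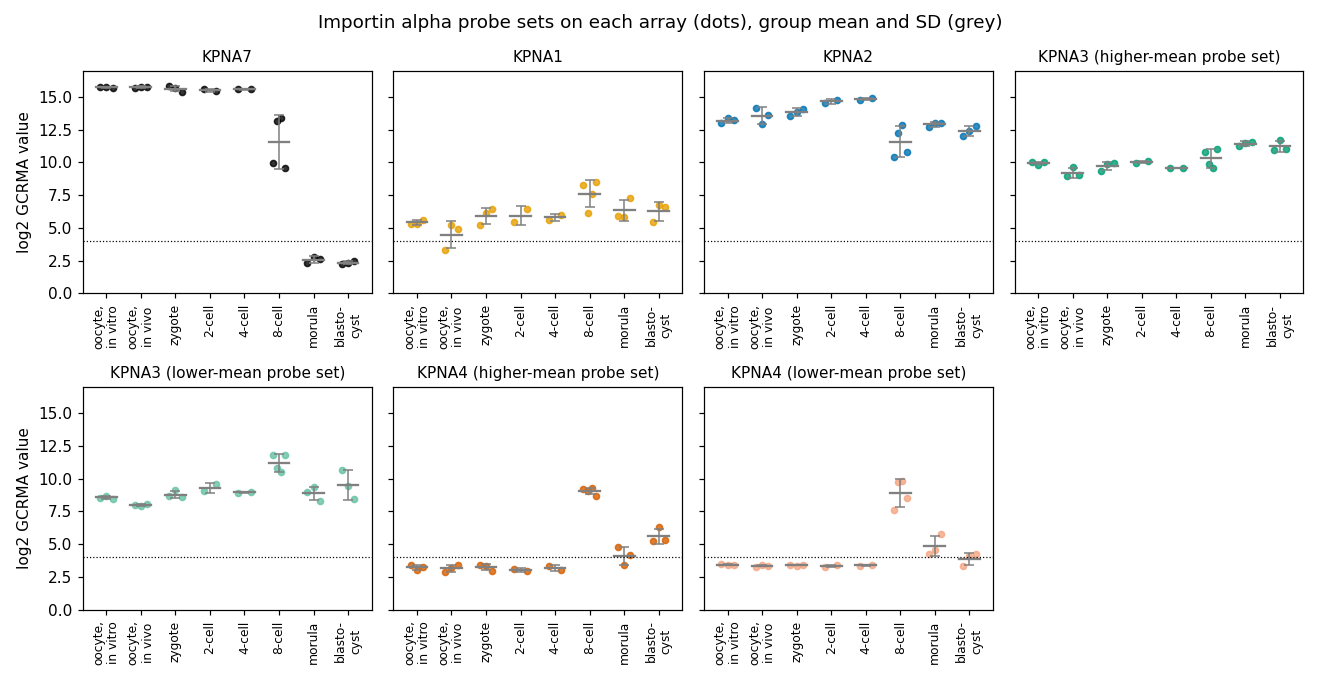
Log2 GCRMA values (y axis) of the 7 importin alpha probe sets on each of 23 arrays (dots) in 8 groups (x axis), with group means and SD in grey and a dotted line at 4. KPNA7 stays between 15.41 and 15.80 up to the 4-cell stage and lies between 2.28 and 2.79 in morulae and blastocysts, while both KPNA4 probe sets rise above 4 on all arrays at the 8-cell stage.

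The fall of KPNA7 came in the steps to the 8-cell stage and to the morula. The 8-cell arrays stood at 9.93, 13.19, 13.43 and 9.61, all below the 4-cell arrays at 15.61 and 15.57. The measured difference was 16.5-fold lower (-4.05 on the log2 scale, SE 0.72, adjusted p = 6.45e-05). It was -4.68 without 8-cell array 3 and -3.40 without 8-cell array 4. The SE rests on the spread shared by all groups, and the 8-cell arrays varied more (SD 2.05). The steps to and from the 8-cell stage are therefore less precise than their SE and p values imply. The morula arrays stood at 2.31, 2.79 and 2.66, at least 186-fold below the 8-cell group (difference -8.96, adjusted p = 5.74e-10), or -8.33 without 8-cell array 3 and -9.60 without 8-cell array 4. The blastocyst arrays stood at 2.28, 2.29 and 2.47. A fold given as "at least" sets arrays of the lower group that lie under 4 to that value. From the in vivo oocyte to the blastocyst the fall was at least 3461-fold (adjusted p = 2.47e-12). These are values per pool of embryos, in which a lower share of the RNA and less transcript per cell cannot be told apart. Both steps also passed with a spread from the compared arrays alone, without the 4 arrays with markers and without any single array.

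KPNA2, of the same subfamily as KPNA7, remained expressed at every stage but dipped at the 8-cell stage. It stood at 13.03, 13.36 and 13.21 in in vitro oocytes, 14.16, 12.93 and 13.66 in in vivo oocytes and 13.52, 13.88 and 14.11 in zygotes. The in vivo oocytes overlapped with each of the others, and in vitro oocytes lay below zygotes. It stood at 14.55 and 14.80 in 2-cell embryos and 14.78 and 14.89 in 4-cell embryos. The highest groups were thus the 2-cell and 4-cell embryos, whose ranges overlapped, although no single step up to the 4-cell stage passed. The 8-cell arrays stood at 10.39, 12.27, 12.87 and 10.81, all below the 4-cell arrays, a 9.50-fold fall (difference -3.25, SE 0.48, adjusted p = 6.41e-06). This SE too rests on the shared spread, and the 8-cell arrays varied more (SD 1.17). Morulae, at 12.69, 13.05 and 13.00, were 2.51-fold higher than the 8-cell group (difference 1.33, SE 0.42, adjusted p = 0.0111), but their range overlapped with that of the 8-cell arrays. With a spread from these 7 arrays alone this rise did not pass (adjusted p = 0.102). Blastocysts, at 12.02, 12.41 and 12.78, did not overlap with in vivo oocytes and were 2.27-fold lower (adjusted p = 0.0265). That call was lost without in vivo oocyte 1 (adjusted p = 0.124), in vivo oocyte 3 (0.0623), blastocyst 1 (0.100) or blastocyst 2 (0.0551), without the 4 arrays with markers (0.0615) and with no filter on low values (0.0569).

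KPNA4 appeared at the 8-cell stage as a pulse seen by both of its probe sets. On the 13 arrays up to the 4-cell stage the higher-mean probe set lay between 2.89 and 3.43 and the lower-mean probe set between 3.29 and 3.48, all below 4. On the 8-cell arrays the former stood at 9.18, 9.10, 9.27 and 8.70 and the latter at 7.60, 9.77, 9.81 and 8.53. The rise from the 4-cell stage was at least 33.4-fold (adjusted p = 5.46e-11) and at least 30.5-fold (adjusted p = 9.66e-09). As both probe sets passed the filter on low values through the 8-cell and later arrays alone, these p values lend no support of their own. All 8-cell arrays lay above all arrays of every other group for both probe sets.

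In morulae KPNA4 fell back towards background, at least 26.8-fold by the higher-mean probe set (4.82, 3.44 and 4.14, adjusted p = 1.69e-10) and 16.7-fold by the lower-mean one (4.27, 4.58 and 5.75, adjusted p = 1.71e-07). The probe sets then parted. The higher-mean probe set was at least 2.44-fold higher in blastocysts (5.22, 6.28 and 5.32) than in morulae (difference 1.47, SE 0.34, adjusted p = 0.00894), whereas the lower-mean probe set stood at 3.32, 4.08 and 4.22 and did not pass (adjusted p = 0.229). The rise of the former did not pass without morula 2 (adjusted p = 0.0723), with a spread from the 6 arrays alone (0.167) or with arrays centred on spike-in controls (0.136). The unequal change of the probe sets in this step was not tested.

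KPNA3, of the subfamily of KPNA4, was measured above 4 on every array, and its probe sets followed different courses. Over the 13 arrays up to the 4-cell stage the higher-mean probe set ran from 8.98 to 10.09 (median 9.84) and the lower-mean one from 7.90 to 9.56 (median 8.67). For both, in vivo oocytes had the lowest group mean (9.21 ± 0.38 and 7.99 ± 0.08, n = 3). The lower-mean probe set rose at the 8-cell stage, to 11.84, 10.78, 10.52 and 11.79 from 8.92 and 8.98 in 4-cell embryos, 4.86-fold higher (difference 2.28, SE 0.48, adjusted p = 0.000362). It fell 5.11-fold to 8.95, 9.36 and 8.33 in morulae (adjusted p = 9.49e-05). Neither step had overlapping ranges. Blastocysts, at 10.70, 9.45 and 8.45, were higher than in vivo oocytes by 1.55 (adjusted p = 0.00553). That call was lost without blastocyst 1 (0.0550), without the 4 arrays with markers (0.119), with a spread from the 6 arrays alone (0.0597) and with spike-in centring (0.179).

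The higher-mean probe set of KPNA3 stood at 10.80, 9.85, 9.58 and 11.01 on the 8-cell arrays, and array 3 touched the 4-cell values of 9.55 and 9.58. The difference of 0.74 did not pass (SE 0.36, adjusted p = 0.0783). It passed without 8-cell array 2 (adjusted p = 0.0405) or 8-cell array 3 (0.0161). It rose in morulae, to 11.22, 11.45 and 11.60, all above the 8-cell arrays (2.17-fold, difference 1.12, SE 0.32, adjusted p = 0.00537). Centring the arrays on spike-in controls ended this call (0.0545). It was 4.01-fold higher in blastocysts than in in vivo oocytes (11.22 ± 0.40 against 9.21 ± 0.38, n = 3 each, adjusted p = 3.11e-05). The difference between the probe sets, higher-mean minus lower-mean, was -1.04 to -0.78 on the 8-cell arrays and 2.09 to 3.27 on the morula arrays. It was computed after the values were seen and was not tested. With the mean of both probe sets KPNA3 rose at the 8-cell stage (1.51, adjusted p = 0.00107) and the morula step turned to -0.62 (adjusted p = 0.104).

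KPNA1 was the member of its subfamily that was measured, and its values were low. Over the 13 arrays up to the 4-cell stage it ran from 3.34 to 6.44 (median 5.44), with group means of 5.42 ± 0.19 in in vitro oocytes (n = 3), 5.94 ± 0.61 in zygotes (n = 3) and 5.94 ± 0.71 in 2-cell embryos (n = 2). In the order of group means from the 8-cell stage down, each group but the in vivo oocyte overlapped with its neighbour. In vivo oocytes stood at 3.34, 5.25 and 4.90, the 4-cell arrays at 5.60 and 6.01, and the 8-cell arrays at 8.31, 6.16, 7.58 and 8.48. The 8-cell rise was 3.55-fold (difference 1.83, SE 0.64, adjusted p = 0.0180), with ranges that did not overlap. It did not pass without 4-cell array 1 (adjusted p = 0.117), 4-cell array 2 (0.0511) or 8-cell array 4 (0.0505), without the 4 arrays with markers (0.106), with the replicate number as a block (0.0729), with a spread from the 6 arrays alone (0.0790) or with arrays centred on spike-in controls (0.0502). Morulae, at 5.92, 5.80 and 7.30, overlapped with the 8-cell arrays (difference -1.30, SE 0.57, adjusted p = 0.0590). This step passed without 8-cell array 2 (adjusted p = 0.00752), morula 3 (0.0222) or in vivo oocyte 1 (0.0419), and with values below 4 set to 4 (0.0496). Blastocysts stood at 5.43, 6.74 and 6.60, at least 2.91-fold above in vivo oocytes (difference 1.76, adjusted p = 0.0154, and 2.55 without the 4 arrays with markers). That call was lost without in vivo oocyte 1, the array below 4 (adjusted p = 0.107), without blastocyst 2 (0.0638) or blastocyst 3 (0.0543), with a spread from the 6 arrays alone (0.0531) and with spike-in centring (0.121).

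**Figure D2:**
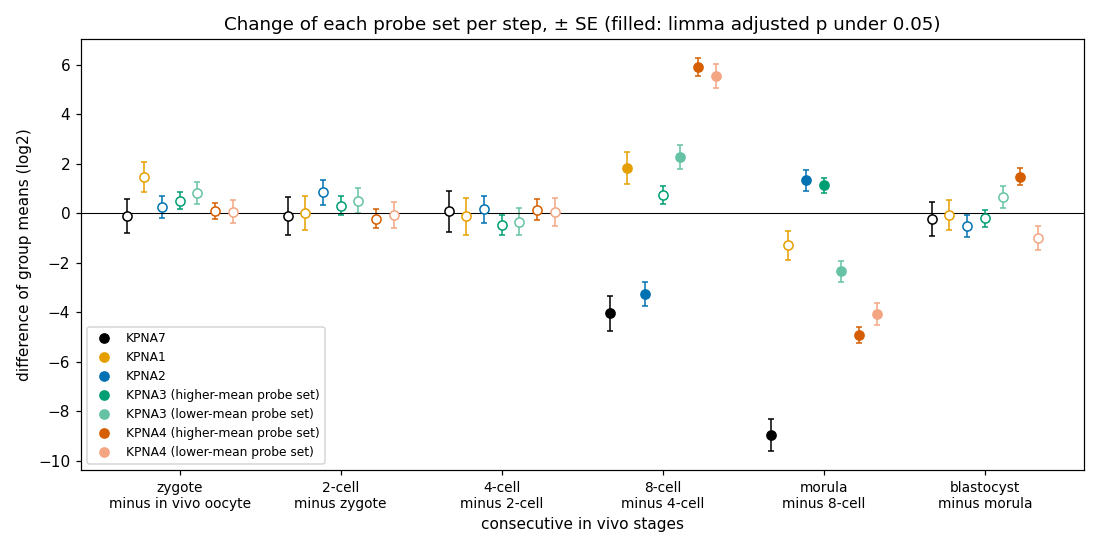
Difference of group means on the log2 scale (y axis) for each of 7 importin alpha probe sets over 6 consecutive in vivo steps (x axis), with SE bars and filled symbols where the limma adjusted p was under 0.05. No symbol is filled before the 8-cell stage, and at that step KPNA7 (-4.05) and KPNA2 (-3.25) fall while KPNA4 (5.89 and 5.54) rises.

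Counted over the family, none of the 7 probe sets passed between in vitro and in vivo oocytes, where 8.54% of all probe sets tested passed. None passed from oocyte to zygote (2.94% of all), zygote to 2-cell (3.20%) or 2-cell to 4-cell (0.0137%). At an unadjusted p under 0.05 limma gave 1 in the first comparison, 1 in the second and 0 in the others. Of all 14571 probe sets, 2959, 1808, 2568 and 292 reached that level in the same comparisons, in this order. From the 4-cell to the 8-cell stage 4 rose, 2 fell and 1 did not pass. Over all 14571 probe sets 63.4% passed in that step (29.8% rose and 33.6% fell), so a member that passed was no rarity there. The median change of the 7 probe sets was 1.83, beside -0.03 over all probe sets tested. KPNA3 and KPNA4 enter these counts and medians with 2 probe sets each, which are not independent. With 1 probe set per gene the changes were -4.05 for KPNA7, -3.25 for KPNA2, 0.74 for KPNA3, 1.83 for KPNA1 and 5.89 for KPNA4. The middle value was thus 0.74. From the 8-cell stage to the morula 2 rose and 4 fell (27.0% and 28.5% of all, 55.5% together), with a median of -2.35 beside -0.01. With 1 probe set per gene the changes were -8.96 for KPNA7, -4.93 for KPNA4, -1.30 for KPNA1, 1.12 for KPNA3 and 1.33 for KPNA2. The middle value was thus -1.30. Both steps use the 8-cell arrays, so they are not independent. From morula to blastocyst 1 rose (5.29% of all, and 8.96% in either direction), the higher-mean probe set of KPNA4. Against in vivo oocytes 4 were higher in blastocysts and 2 lower (32.2% and 32.4% of all, 64.6% together).

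Late groups (8-cell, morula and blastocyst) were also set against early in vivo groups (oocyte to 4-cell), with 10 arrays on each side. The difference between a gene and KPNA7 on the same array was higher on the late arrays by 10.90 for KPNA1, 7.64 for KPNA2, 10.86 for KPNA3 and 12.93 for KPNA4 on the log2 scale. These shifts are mostly the fall of KPNA7, which a gene at a constant level would show too, so they say nothing on whether a member rose and are given without a p value. The levels of the members themselves bear on that, but a mean of late groups also holds an 8-cell rise that was later lost. Against in vivo oocytes 4 probe sets passed as higher in blastocysts, and the lower-mean KPNA4 probe set did not (0.53, adjusted p = 0.334). In the fit over all probe sets KPNA7 differed by -10.13 between the mean of the late groups and the mean of the early groups, and KPNA2 by -1.93 (SE 0.25, adjusted p = 5.7e-07). The other 5 probe sets were higher in the late groups, by 1.13 to 3.12 (40.7% of all probe sets were higher and 40.6% lower, 81.3% together). The ranges of late and early arrays overlapped for KPNA1, KPNA2, both KPNA3 probe sets and the lower-mean KPNA4 probe set. Those of KPNA7 and the higher-mean KPNA4 probe set did not overlap.

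In that contrast KPNA4 stood at 3.12 (SE 0.19, adjusted p = 7.3e-12) and 2.52 (SE 0.26, adjusted p = 2.15e-08), and KPNA3 at 1.35 (SE 0.19, adjusted p = 1.64e-06) and 1.13 (SE 0.25, adjusted p = 0.000412). KPNA1 stood at 1.20 (SE 0.34, adjusted p = 0.00295). Arrays centred on spike-in controls ended the calls of KPNA1 (0.63, adjusted p = 0.107) and of the lower-mean KPNA3 probe set (0.55, adjusted p = 0.127). That scaling moved the median of all probe sets in this contrast from 0.03 to -0.54. So at the stage where KPNA7 first fell, both KPNA4 probe sets and the lower-mean KPNA3 probe set rose and KPNA2 fell, while the rise of KPNA1 was lost under the 7 alternatives named above. When KPNA7 reached background in the morula, both KPNA4 probe sets and the lower-mean KPNA3 probe set fell. The higher-mean KPNA3 probe set and KPNA2 rose in that step, each with a call that 1 alternative ended (spike-in centring and the spread of the 7 arrays alone), and averaging the KPNA3 probe sets turned its direction.

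Over the 8 group means the higher-mean KPNA3 probe set ran most opposite to KPNA7 (Pearson r = -0.945). The lower-mean KPNA3 probe set gave -0.253, the higher-mean KPNA4 probe set -0.387, the lower-mean one -0.249, KPNA1 -0.416 and KPNA2 0.571. These r describe 8 points that rest on the same arrays and are no test.

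The 8-cell arrays had the widest spread of KPNA7 (SD 2.05) and KPNA2 (SD 1.17) of any group. KPNA7 and KPNA2 were lower on arrays 1 and 4 than on arrays 2 and 3, while KPNA1 and both KPNA3 probe sets were higher there. The lower-mean KPNA4 probe set was lower on arrays 1 and 4, and the higher-mean one stood between 8.70 and 9.27 on all of them. The median of 9 oocyte genes was 9.02, 10.23, 10.50 and 8.55 on arrays 1 to 4. Correlations across all probe sets tested were 0.981 between arrays 1 and 4, 0.961 between arrays 2 and 3, and 0.899 to 0.910 for the other pairs, where probe sets are not independent replicates. The labels give these 4 arrays as 1 group, and whether their pools differed in cell number or time was not tested.

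**Figure D3:**
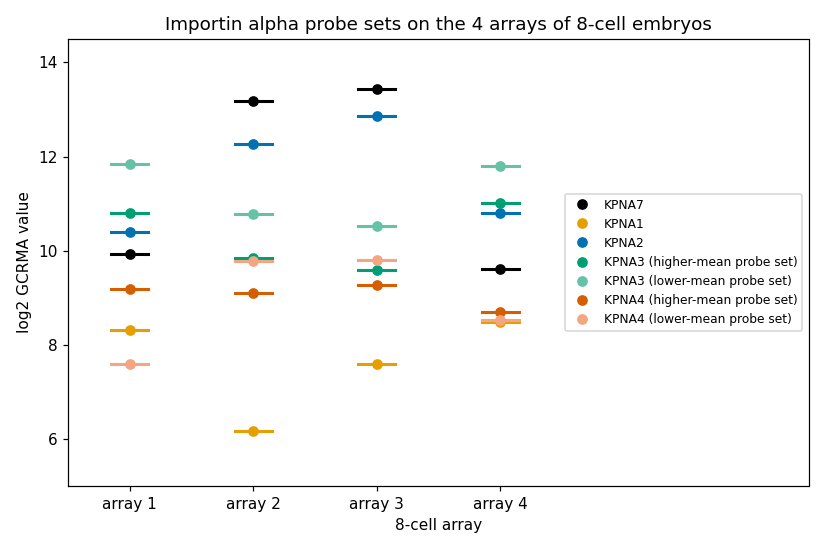
Log2 GCRMA values (y axis, starting at 5) of the 7 importin alpha probe sets on the 4 arrays of 8-cell embryos (x axis). KPNA7 and KPNA2 are lower on arrays 1 and 4 than on arrays 2 and 3, and both KPNA3 probe sets and KPNA1 are higher there.

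The partners of importin alpha were taken from lists of the import and export machinery, with 1 probe set per gene, that of the highest mean. KPNB1, the importin beta that pairs with importin alpha, was named by no probe set in the annotation used here. CSE1L, the exporter of importin alpha, rose 3.12-fold at the 8-cell stage (10.76 ± 0.46, n = 2, to 12.40 ± 0.13, n = 4, adjusted p = 5.02e-06) and did not pass in the morula step (-0.02, adjusted p = 0.952). Its other probe sets changed by 1.16 (adjusted p = 0.000116) and 1.05 (adjusted p = 0.0562) in the first of these steps. RAN, the GTPase that drives the cycle, rose 2.19-fold (12.93 ± 0.21 to 14.07 ± 0.56, adjusted p = 0.000867), a call that spike-in centring ended (0.0836). RANGAP1, its activating protein in the cytoplasm, was below 4 on all 13 arrays up to the 4-cell stage and at 7.09 ± 0.97 on the 8-cell arrays, at least 8.52-fold higher (adjusted p = 1e-07). Like KPNA4, RANGAP1 passed the filter on low values through the 8-cell and later arrays alone.

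XPO1, the exporter of proteins with leucine-rich signals, rose 6.77-fold at the 8-cell stage (adjusted p = 1.85e-06). It was 1.74-fold lower in morulae than on the 8-cell arrays (adjusted p = 0.0419), which spike-in centring ended (0.183). NUTF2, which brings RAN back to the nucleus, and RCC1, its exchange factor on chromatin, did not pass at the 8-cell stage (-0.32, adjusted p = 0.243, and -0.26, adjusted p = 0.447). RCC1 lay close to 4 throughout, at group means of 4.32 to 4.69.

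**Figure D4:**
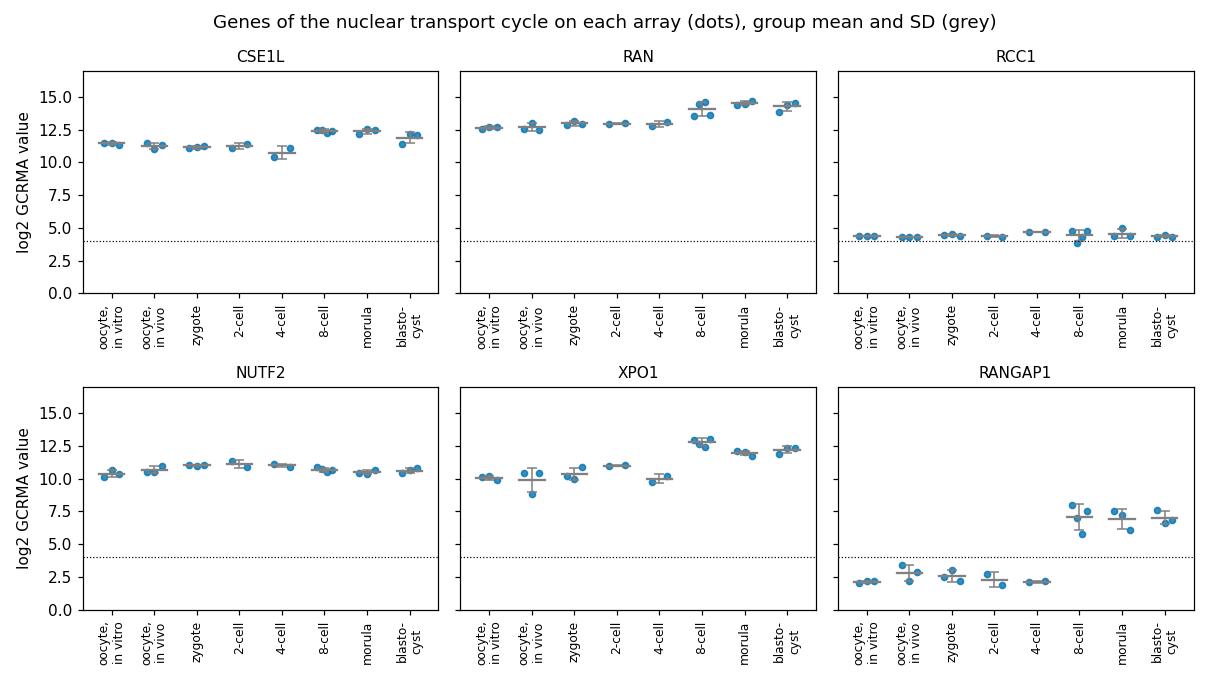
Log2 GCRMA values (y axis) of 6 genes of the nuclear transport cycle on each of 23 arrays (dots) in 8 groups (x axis), with group means and SD in grey and a dotted line at 4. RANGAP1 lies below 4 up to the 4-cell stage and averages 7.09 on the 8-cell arrays, whereas NUTF2 stays between group means of 10.39 and 11.14.

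Of 8 importin beta family genes tested, of 11 listed, 4 rose at the 8-cell stage and none fell, with a median change of 1.91. TNPO3, an importer of splicing factors, rose by 4.70 on the log2 scale (SE 0.36, adjusted p = 9.63e-10), and the others were TNPO2 (3.56), IPO4 (2.99) and IPO7 (2.66). Of 9 such genes with a probe set, 4 to 5 lay above 4 on arrays up to the 4-cell stage and 7 on the 8-cell arrays. Some of these changes may thus start from background, and values under 4 were not set to 4 in them. Of 5 exportin genes 3 rose and none fell (median 0.75), and of 7 genes of the RAN cycle 3 rose and 1 fell (median 0.14). The gene that fell was RANBP1, a RAN binding protein of the cytoplasm (-2.27, adjusted p = 6.65e-06). With arrays centred on spike-in controls the RAN cycle list had 1 gene up and 1 down, and the exportin list 2 up, as it also had without the 4 arrays with markers. Of 26 nucleoporin genes 4 rose, 9 fell (7 without the 4 arrays with markers) and 13 did not pass (median -0.05). Background shares in this step are those given above for the family.

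In the contrast of late against early groups the nucleoporins had 3 genes higher, 14 lower and 9 that did not pass, beside 40.7% higher and 40.6% lower over all probe sets, with a median of -0.89 beside 0.03. Without the 4 arrays with markers 13 were lower. NUP35 differed by -3.05 (adjusted p = 6.57e-12) and NUP88 by -2.49 (adjusted p = 8.88e-15). With arrays centred on spike-in controls none was higher and 17 were lower.

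Of the 7003 genes compared, those with a course most like that of KPNA7 over the 23 arrays were PHYHIPL (Pearson r = 0.995), PRSS2 (0.995), MOS (0.994), POC5 (0.994) and HEY1 (0.993). MOS, the kinase that holds the oocyte in meiotic arrest, had group means of 13.48 in in vivo oocytes, 8.60 in 8-cell embryos and 1.69 in blastocysts. The most opposite courses were those of CTSL (-0.995), TJP3 (-0.990), ESYT2 (-0.988), ILVBL (-0.987) and SLC66A1 (-0.986). CTSL, a lysosomal protease, had means of 2.93, 7.09 and 13.48 in the same groups. These values describe arrays that fall into early and late sets and are no test. Of 9 oocyte genes tested, 8 fell at the 8-cell stage (33.6% of all probe sets did), 8 fell in morulae (28.5% of all), and none passed in the earlier steps (0.0137% to 3.20% of all).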

How the data were processed

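The deposited values are GCRMA expression values on the log2 scale, 1 per probe set and array, made with GCRMA 2.0.0 per the submitters' processing notes. The authors' other steps are not given in the sources used here, and scanner files were not used. The scale was read from the values, and no value was transformed again. Of 24128 probe sets 112 are controls. Of the other 24016, 13292 carry 1 symbol, 86 several and 10638 none. Symbols are those of the platform annotation, which can be old.

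Probe sets above 4 on at least 2 arrays (14571) were fitted in R 4.3.3 by limma 3.58.1 using lmFit and moderated by a trended eBayes prior. Each group had its own mean and all 23 arrays shared 1 spread (15 residual degrees of freedom). The 9 comparisons were two-sided, with Benjamini-Hochberg adjustment within each, and passed means an adjusted p under 0.05. The spread is shared, so a group of 2 arrays is assumed to vary like the others. Differences from KPNA7 were taken per array, with permutation tests (100000 resamples, late against early) whose outcome the fall of KPNA7 fixes and which support nothing. Because normalization makes array distributions alike, changes are relative to other transcripts, and a change in poly(A) tail, in RNA per cell or in cell number cannot be told apart from a change in transcript level.

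The members, lists, contrasts and rule for named genes were chosen with earlier results of these data known. Named were all members, the 7 fixed genes of the transport cycle of which 6 had a probe set, and the 5 most and 5 least similar genes, and other list genes were named after their values were seen. Alternatives were the filter, prior, spread, block, scaling, floor, probe set summary and the arrays left out. No reference sequence was used.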

Additional observations from a re-analysis of the deposited data

How the results depend on the processing

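Of the changes of single probe sets recomputed under the alternatives, 2023 kept their side of the threshold, 30 lost it, 7 gained it and 1 turned. The 2023 include comparisons up to the 4-cell stage, where no member passed, and arrays left out of groups that were not compared. Many of them could hardly change, so this number does not measure how stable the calls are. The one that turned was the higher-mean KPNA3 probe set from 8-cell to morula, at -0.62 when its probe sets were averaged. The count of family members past the test from morula to blastocyst was 0 with a spread from the compared arrays alone, 0 with arrays centred on spike-in controls and, over genes, 0 when the probe sets of a gene were averaged. Leaving out single arrays gave 0 to 1 in that step, 5 to 7 from 4-cell to 8-cell, 6 to 7 from 8-cell to morula, 4 to 6 from in vivo oocyte to blastocyst and 7 in every case for late against early. With only 8-cell and 4-cell arrays the shift relative to KPNA7 was 5.87 for KPNA1, 0.80 for KPNA2, 4.79 for KPNA3 and 9.94 for KPNA4. The exact permutation test could not pass there, as its smallest unadjusted p is 0.133 (adjusted p = 0.178, 0.400, 0.178 and 0.178). Each shift holds the fall of KPNA7 (-4.05) together with the member's own change. That change was 1.83 for KPNA1, -3.25 for KPNA2, 0.74 for KPNA3 and 5.89 for KPNA4. The replicate block gave 5 probe sets past the test from 4-cell to 8-cell, with KPNA1 lost at 1.33 (adjusted p = 0.0729), and changed no other call of the family. Same-numbered arrays had deviations that correlated at -0.377 to 0.491 in 21 pairs, 5 above 0.1, which does not show that numbers pair the arrays. The number of all probe sets past the test ran from 1 to 2442 for the oocytes (1245), 3 to 1129 for the zygote step (428), 0 to 1183 for the 2-cell step (467), 0 to 84 for the 4-cell step (2) and 264 to 1442 for the blastocyst step (1305), with the main count in parentheses. Centring on spike-in controls changed the counts of late against early to 4185 higher and 6899 lower, from 5936 and 5915. Those of blastocyst against in vivo oocyte went to 3228 and 5326, from 4695 and 4725. Those of in vitro against in vivo oocytes went to 25 and 557, from 197 and 1048. Those of 2-cell against zygote went to 10 and 24, from 202 and 265. Among these, late against early alone moved from more higher to more lower, and the others had more lower in both fits. The lists were recomputed under 4 alternatives only. The small number of arrays limits precision, as does, for KPNA4 and KPNA1, signal near background.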

Other observations

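Besides KPNA4 and a KPNA3 probe set, some other genes of nuclear transport were highest on the 8-cell arrays. NUP50, a nucleoporin that binds importin alpha, changed by 2.70 from 4-cell to 8-cell (SE 0.30, adjusted p = 1.98e-07) and by -3.26 from 8-cell to morula (SE 0.27, adjusted p = 3.84e-09). NUP42, on the cytoplasmic side of the pore, changed by 3.11 (adjusted p = 2.21e-05) and -5.57 (adjusted p = 2.95e-09). TNPO2, a transportin, changed by 3.56 (adjusted p = 0.000155) and -3.46 (adjusted p = 7.21e-05). RANBP1 took the opposite course, as KPNA2 did, with -2.27 and then 1.93 (adjusted p = 6.65e-06 and 1.38e-05). IPO8, an importin of the beta family, did not pass at the 8-cell stage (0.24, adjusted p = 0.664) and rose by 4.34 in morulae (SE 0.37, adjusted p = 7.32e-09). Both steps use the same 8-cell arrays, and these genes were picked from the lists after their values were seen. Values under 4 were not set to 4 here, so a change from or to background is not a measured fold.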
